A study of Rattus norvegicus with 24 samples.

Results

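Of the 677 rat miRNAs on the array, 4 are described here: rno-miR-3588, rno-miR-1949, rno-miR-3558-3p and rno-miR-664 (miR-3588, miR-1949, miR-3558-3p and miR-664 in what follows). They were taken by an exact match of their names to the array entries. They had been selected on their low log2 levels in arthritic rats given mechanical stimulation (MS), so their differences between MS and the groups MS was set against are given as descriptions, without a test. All 4 were detected on 24 of 24 arrays and passed the filter on dim miRNAs.

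miRNAs of mononuclear cells from the blood (PBMC) of female Wistar rats were measured in 12 groups of 2 arrays, and each array held the RNA of a separate blood sample. Healthy animals (NOCIA) were sampled before therapy, at 1 hour and at 34 days. Animals with collagen-induced arthritis (CIA), a model of rheumatoid arthritis raised by immunisation with bovine type II collagen in Complete Freund's adjuvant and a booster in incomplete adjuvant, were sampled before therapy. At 1 hour and at 34 days CIA animals were sampled in 4 arms: MS by short needles inserted on both sides at the lower back and beside the tibia and rotated, weekly peritoneal methotrexate (MTX), saline given in the same way as a placebo (PLA), and isoflurane in place of ether at blood sampling with no other therapy (ANE). All animals were shaved. Animals were sacrificed at sampling, so each time point holds different animals, and p-values cover the spread between such samples. The ages of the animals were not given in the sources used here.

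A miRNA is a short RNA that guides the silencing machinery to messenger RNAs, mostly through its seed, bases 2 to 8 from the 5' end. It is cut from one arm of a hairpin precursor, and the other arm is often degraded. Many miRNA hairpins lie within a longer gene and share its transcription, and some are made from small nucleolar RNAs. Rat entries with high numbers were named late, mostly from sequencing, and less is known of what they do. miR-664 also has a human counterpart, so that it is not a miRNA of rodents only.

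The mature sequences show how the 4 differ. The probe sequences were not compared with them, so the link to the array rests on the names. These mature sequences were taken from RefSeq on build GRCr8, 5' to 3', with the seed in capitals. RefSeq held 3 of the 4 under the array's name. miR-664 was matched to miR-664-3p, because the array lists the other arm under starred names.
miR-3588: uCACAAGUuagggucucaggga
miR-1949: uAUACCAGgaugucagcauaguu
miR-3558-3p: aCUGUGGAggguuucuaugu
miR-664 (miR-664-3p): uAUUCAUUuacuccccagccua
The 4 seeds differ from each other. Among the 693 mature names in the RefSeq table, 0 others carried any of these seeds.

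The loci lie apart. miR-1949 lies at chr18:27429753-27429775 on the plus strand, within the span of Matr3, which encodes the nuclear matrix protein matrin 3. miR-3558-3p lies at chr6:12935330-12935349 on the minus strand, within the span of Ttc7a. miR-664-3p has 2 loci with the same mature sequence. One is Mir664-2 at chr13:99324687-99324708 on the plus strand, within the span of Rab3gap2, a regulator of a Rab GTPase. The other is Snora36c, a small nucleolar RNA gene, at chr18:48150403-48150424 on the plus strand. Gene spans, here and for miR-3588 below, were matched by position without regard to strand. They hold no exons, so whether a miRNA shares the strand, an exon or an intron of the gene is not stated here.

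miR-3588 lies at chr11:29732588-29732609 on the minus strand, within the span of the long non-coding RNA gene LOC103693508. The same 22 bases on the plus strand are miR-125b-5p, a widely conserved miRNA of the locus Mir125b2. The sequence of miR-3588 is the exact reverse complement of that miRNA. Both are shown with their own seed in capitals, since the pair has a seed of its own on each strand.
miR-3588: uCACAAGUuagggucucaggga
miR-125b-5p: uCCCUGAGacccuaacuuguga
The array has an entry for each, and miR-125b-5p is brought in here because of this overlap, which was found after its values were available.

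Intensities were scaled between arrays and are given as log2 scaled intensity, with values under a floor of 2.53 set to it. A level can be compared between arrays for one miRNA, but not between miRNAs, which have different probes. The intensity of a miRNA is the software's total over its probes, and on some arrays that total leaves probes out. For miR-3588 and miR-1949 it held both of their probes on 24 of 24 arrays, and for miR-3558-3p both on 22 arrays and 1 probe on replicate 2 of NOCIA before therapy and replicate 1 of MS at 34 days. For miR-664, which has 3 probes, it held 1 probe on 10 arrays, 2 on 12 and 3 on 2. The levels of miR-664 on different arrays are therefore not like for like, and differences with the sum of all probes, an alternative chosen after the data were seen, are given beside the main ones where they part. Each array detected 145 to 207 miRNAs, their intensities summed to 137544 to 519917 per array, and 0 spots were saturated. The highest sum was on replicate 1 of MS at 34 days, followed by replicate 1 of MS at 1 hour (371061), and these 2 arrays carried the lowest values of all 4 miRNAs. The arrays lay on 3 slides of 8, each group on 1 slide, so that a comparison across slides cannot be told apart from a slide difference.

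Among miRNAs fixed as markers of blood cells, all 4 of a lymphocyte list (miR-150, miR-342-3p, miR-181a and miR-181b) and all 3 of a myeloid list (miR-223, miR-22 and miR-27a) were detected on every array. This held for 132 of the 677 miRNAs on the array. Of the erythroid list, miR-451 and miR-144 were detected on 24 arrays and miR-486 had no entry under that name. Of the platelet list, miR-126 was detected on 24 arrays and both miR-126* and miR-199a-3p on 2. The hepatocyte miRNA miR-122 was detected on 9 arrays.

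miR-3588 was high in the animals before therapy and low in several groups at 34 days. In NOCIA animals its log2 scaled intensity was 9.72 and 9.52 (replicates 1 and 2) before therapy, 9.86 and 8.89 at 1 hour and 8.04 and 7.31 at 34 days. In CIA animals before therapy it was 9.64 and 9.996, so healthy and arthritic animals overlapped at the start.

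In the arms at 1 hour, miR-3588 was 7.21 and 9.75 in MS, 8.94 and 9.85 in MTX, 9.14 and 9.05 in ANE and 8.61 and 8.10 in PLA. The MS replicates lay 2.54 apart, and the second was among the highest arrays of all. At 34 days it was 5.61 and 7.67 in MS, 7.82 and 7.85 in MTX, 8.72 and 9.54 in ANE and 8.73 and 9.17 in PLA. MS and MTX lay below ANE and PLA on every array at this time, and the NOCIA arrays at 34 days lay on either side of the MTX arrays and of the higher MS array.

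miR-1949 varied between arrays and was by far the lowest on 2 of them. In NOCIA animals its log2 scaled intensity was 9.22 and 9.10 before therapy, 9.47 and 8.85 at 1 hour and 8.90 and 8.52 at 34 days. In CIA animals before therapy it was 9.50 and 9.55, both above the NOCIA arrays before therapy.

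At 1 hour, miR-1949 was 5.96 and 9.34 in MS, 9.12 and 9.59 in MTX, 8.01 and 8.85 in ANE and 9.16 and 7.76 in PLA. At 34 days it was 4.66 and 8.22 in MS, 8.19 and 8.96 in MTX, 8.53 and 9.43 in ANE and 9.24 and 9.19 in PLA. Replicate 1 of each MS group stood apart, while replicate 2 lay within the range of the 20 arrays outside MS, which ran from 7.76 to 9.59.

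miR-3558-3p varied most between replicates. In NOCIA animals its log2 scaled intensity was 7.32 and 4.57 before therapy, 7.53 and 6.69 at 1 hour and 5.998 and 5.19 at 34 days. In CIA animals before therapy it was 7.23 and 5.57. The replicates before therapy were as far apart as many of the groups. With both probes summed, replicate 2 of NOCIA before therapy was 5.31 in place of 4.57.

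At 1 hour, miR-3558-3p was 4.45 and 7.74 in MS, 6.50 and 7.52 in MTX, 5.48 and 6.82 in ANE and 6.83 and 6.06 in PLA. At 34 days it was at the floor (2.53) and at 5.17 in MS, 5.47 and 5.89 in MTX, 6.39 and 7.40 in ANE and 6.97 and 6.88 in PLA. MS at 34 days lay below the other 3 arms on both arrays. Of the 20 spots of this miRNA, 0 were well above background on replicate 1 of MS at 34 days, 3 on replicate 2 of NOCIA before therapy, and 11 to 20 on the other arrays.

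miR-664 was dim throughout. In NOCIA animals its log2 scaled intensity was 3.41 and 3.72 before therapy, 4.37 and 4.51 at 1 hour and 4.32 and 3.29 at 34 days. In CIA animals before therapy it was 3.72 and 4.43. Between 0 and 8 of its 20 spots were well above background on any array, although the software called it detected on each. In NOCIA the total held 1 probe on both arrays before therapy, 2 probes on both at 1 hour, and 2 and 1 at 34 days. With all 3 probes summed the levels were 4.45 and 4.81 before therapy, 4.75 and 4.87 at 1 hour and 4.61 and 4.29 at 34 days, and both later times overlapped the arrays before therapy.

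At 1 hour, miR-664 was at the floor (2.53) and at 3.62 in MS, 4.37 and 4.52 in MTX, 3.29 and 4.06 in ANE and 4.83 and 4.75 in PLA. At 34 days it was at the floor and at 3.90 in MS, 3.97 and 5.09 in MTX, 4.18 and 4.49 in ANE and 3.85 and 3.64 in PLA. On replicate 1 of both MS groups the total held 1 probe and fell under the floor. With all 3 probes summed these arrays were at 3.04 and 3.34 and still the lowest of the 24. On replicate 2 of PLA at 1 hour the total held 2 probes, and 1 of them stood apart, with a scaled intensity of 19.0 against 1.52 to 8.51 on the other 23 arrays. The other 2 probes were at 6.18 and 7.98 there. In the authors' log2 table this array had the lowest value of miR-664 of all 24 (3.201, where the highest was 3.839).

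**Figure D1:**
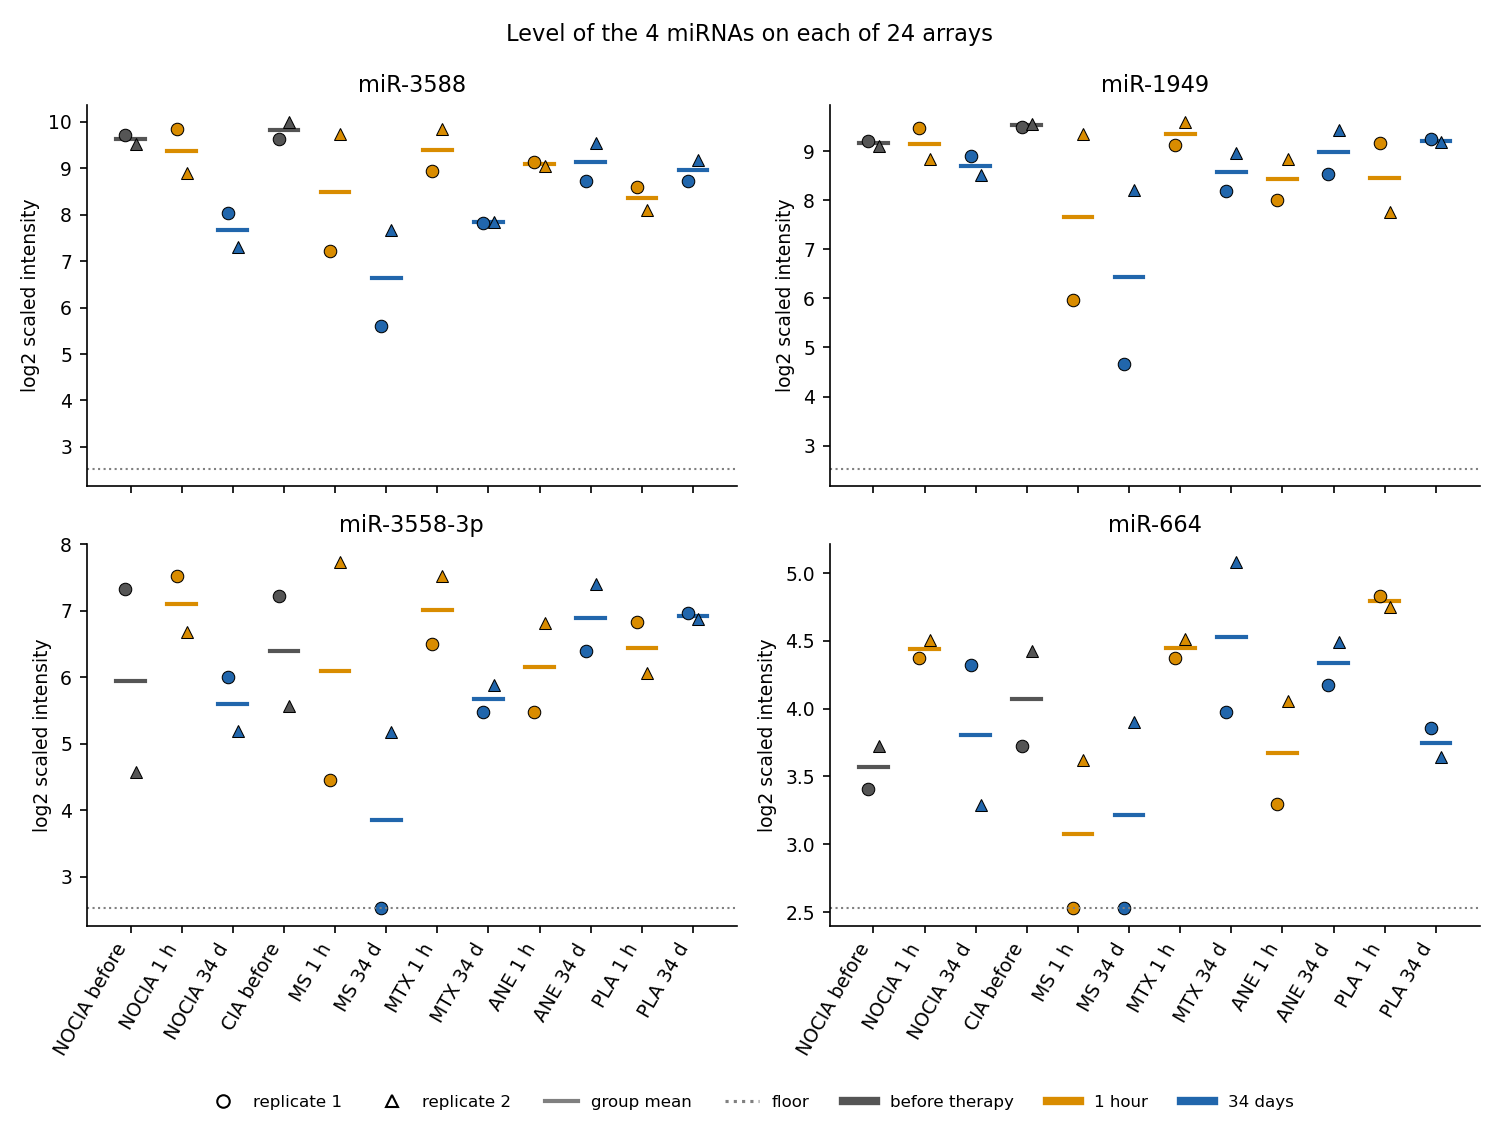
Log2 scaled intensity (y axis, a separate range for each panel) of miR-3588, miR-1949, miR-3558-3p and miR-664 on each array, by group (x axis), with circles for replicate 1, triangles for replicate 2, a bar for the mean of 2 arrays, colours for the sampling time and a dotted line for the floor of 2.53. Replicate 1 was the lower array in both MS groups for all 4 miRNAs, down to 4.66 for miR-1949 and 5.61 for miR-3588.

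The plot of levels by group shows how the group means were ordered. For miR-3588 the order ran from CIA before therapy (9.82), NOCIA before therapy, MTX at 1 hour, NOCIA at 1 hour, ANE at 34 days, ANE at 1 hour, PLA at 34 days, MS at 1 hour, PLA at 1 hour, MTX at 34 days and NOCIA at 34 days to MS at 34 days (6.64). Of the 11 steps between neighbours, only the last, down to MS at 34 days (1.03), exceeded the moderated SD over all groups (0.73). The SD within MS at 34 days was larger than this step, at 1.46. For miR-1949 the top was again CIA before therapy (9.53) and the bottom MS at 34 days (6.44), below MS at 1 hour. The step between these MS groups (1.21) was the 1 of 11 above the SD of 1.03. Within these groups the SDs were 2.39 at 1 hour and 2.51 at 34 days.

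For miR-3558-3p the group means ran from 7.11 in NOCIA at 1 hour to 3.85 in MS at 34 days. The step of 1.75 down from NOCIA at 34 days was the 1 of 11 above the SD of 1.12. The SD within MS at 34 days was 1.87. For miR-664 the means ran from 4.79 in PLA at 1 hour to 3.08 in MS at 1 hour. None of its 11 steps was above the SD of 0.50. The neighbours at all other steps did not differ beyond the moderated SD. The steps above it lead to MS at 34 days, and the 4 were selected on low levels in MS, so these steps are descriptions.

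The replicates of MS were far apart for all 4 miRNAs. For miR-3588 and miR-1949 both MS gaps were larger than in any other group, while a group outside MS had a gap as large as 1 of the MS gaps for miR-3558-3p and miR-664. The replicates of the 10 groups outside MS differed by 0.03 to 0.96 for miR-3588, 0.05 to 1.40 for miR-1949, 0.09 to 2.75 for miR-3558-3p and 0.08 to 1.11 for miR-664. In MS the gaps at 1 hour and 34 days were 2.54 and 2.06 for miR-3588, 3.39 and 3.55 for miR-1949, 3.29 and 2.65 for miR-3558-3p, and 1.10 and 1.37 for miR-664, the last 2 with replicate 1 at the floor. Over the 210 miRNAs tested, the median gap was 0.62 in the earlier MS group, 0.47 in the later one, and 0.11 to 0.47 in the other groups. In 7 of the 12 groups the same replicate was the lower one for all 4 miRNAs. The pooled SD within groups was 0.77 for miR-3588, 1.10 for miR-1949, 1.19 for miR-3558-3p and 0.53 for miR-664, which put them at percentiles 85.2, 96.7, 97.6 and 70.5 of the 210.

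The 5 comparisons that could be tested hold, in the means compared, no array of MS, of CIA before therapy, or of MTX and PLA at 34 days. PLA at 1 hour is in 2 of these comparisons and is also set against MS further on. They ask how the 4 miRNAs differed with time in healthy animals, with the injected drug, and with arthritis and its handling. They share arrays, and each is given by its own values. Their SEs, p-values and intervals use the moderated SD of each miRNA over all 12 groups, MS included. The tests are therefore not independent of the MS arrays. For miR-1949 the SDs within MS were 2.39 at 1 hour and 2.51 at 34 days, and at most 0.99 in other groups. For miR-3588 they were 1.79 and 1.46, and at most 0.68 elsewhere. For miR-3558-3p and miR-664 a group outside MS had an SD above 1 of the MS SDs. Tests were two-sided with limma, and p-values were adjusted over 210 miRNAs.

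From before therapy to 34 days in healthy animals, on 1 slide, 0 of the 4 miRNAs were called by limma, and 0.952% of the 210 were called. miR-3588 was lower at 34 days, 7.67 ± 0.52 (SD, n = 2) against 9.62 ± 0.14, a 3.87-fold difference (log2 -1.95, SE 0.73). Its unadjusted limma p was 0.018 and its adjusted p 0.591, so it did not pass. It was the 1 of 4 under an unadjusted 0.05, where 14 of the 210 were. The other 3 differed by -0.45 for miR-1949 (adjusted p = 0.920, limma), -0.35 for miR-3558-3p (0.935) and 0.24 for miR-664 (0.920). The last 2 depended on the probes counted. The probes taken singly gave -0.70 and -0.74 for miR-3558-3p and -0.30, -0.16 and -0.14 for miR-664, and the sum of all probes gave -0.72 and -0.18.

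Both arrays at 34 days were below both before therapy for miR-3588 and miR-1949, as for 20.5% of the 210. The 95% intervals ran from -3.51 to -0.39 for miR-3588, -2.67 to 1.76 for miR-1949, -2.76 to 2.05 for miR-3558-3p and -0.85 to 1.32 for miR-664. They leave room for differences of over 2-fold either way for miR-1949 and miR-3558-3p. miR-500, the miRNA whose pattern was closest to miR-3588, differed by -1.08 (SE 0.53) in this comparison, and miR-125b-5p on the opposite strand by -0.22 (SE 0.48). The summed scaled intensity of the lymphocyte list, described further on, was 9956 and 10198 before therapy and 7736 to 10879 at 34 days. That of the myeloid list was 9752 to 11154 before therapy and 12415 to 13124 at 34 days, and that of the erythroid list 11291 to 12151 and 7483 to 13485. The hepatocyte miRNA miR-122 was at 212 to 217 before therapy and 4.75 to 4.85 at 34 days. The part of these in the result was not tested.

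From before therapy to 1 hour in healthy animals, across slides, 0 of the 4 were called by limma and 2.38% of the 210 were. An unadjusted p under 0.05 was found for 19 of the 210 and for 0 of the 4. miR-664 was above its arrays before therapy on both arrays, as were 36.2% of the 210, with 4.44 ± 0.10 against 3.57 ± 0.22 (log2 difference 0.87, SE 0.50, limma, adjusted p = 0.726). Its total held 1 probe on the arrays before therapy and 2 at 1 hour. The 1 probe in all 4 totals was at 10.6 and 13.2 before therapy and 12.8 and 13.7 at 1 hour, which overlap, and with all probes summed the difference was 0.18. The difference of miR-3558-3p was 1.16 (SE 1.12), or 0.79 with both probes summed. Those of the other 2 were -0.25 (SE 0.73) for miR-3588 and -0.003 (SE 1.03) for miR-1949. The arrays of these 3 overlapped.

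MTX and PLA at 1 hour, on 1 slide, both received an injection. With limma 0 of the 4 and 0% of the 210 were called, and an unadjusted p under 0.05 was found for 5 of the 210 and for 0 of the 4. miR-3588 was higher in MTX on both arrays, as for 14.8% of the 210, with 9.39 ± 0.64 against 8.35 ± 0.36 (log2 difference 1.04, SE 0.73, limma, adjusted p = 0.884). miR-664 was lower in MTX on both arrays, as for 8.57% of the 210 (log2 difference -0.35, SE 0.50), but with all probes summed the arrays overlapped (-0.13). miR-1949 differed by 0.90 (SE 1.03) and miR-3558-3p by 0.57 (SE 1.12), with overlapping arrays.

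PLA and NOCIA at 1 hour, on 1 slide, differ in arthritis and in the saline injection. With limma 0 of the 4 and 0% of the 210 were called, and an unadjusted p under 0.05 was found for 4 of the 210 and for 0 of the 4. miR-3588 was lower in PLA on both arrays, as for 7.62% of the 210 (log2 difference -1.02, SE 0.73, limma, adjusted p = 0.990). miR-664 was higher in PLA on both arrays, as for 8.57% (log2 difference 0.35, SE 0.50). Its total on replicate 2 of PLA included the 1 probe that stood apart. With all probes summed the arrays overlapped (0.13), and with the authors' table the difference was -0.16. miR-1949 differed by -0.70 (SE 1.03) and miR-3558-3p by -0.66 (SE 1.12). The lymphocyte list summed to 12012 and 4744 in PLA and to 13096 and 10164 in NOCIA, and its part in these values was not tested.

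ANE and NOCIA at 34 days, on 1 slide, differ in arthritis. ANE received isoflurane at blood sampling, and the anaesthetic of NOCIA was not given in the sources used here. With limma 0 of the 4 and 0% of the 210 were called, and an unadjusted p under 0.05 was found for 8 of the 210 and for 0 of the 4. Both ANE arrays were above both NOCIA arrays for miR-3588 and miR-3558-3p, as for 20% of the 210. miR-3588 was 9.13 ± 0.58 against 7.67 ± 0.52 (log2 difference 1.46, SE 0.73), with an unadjusted limma p of 0.065 and an adjusted p of 1.00. miR-3558-3p differed by 1.30 (SE 1.12), miR-664 by 0.53 (SE 0.50) and miR-1949 by 0.28 (SE 1.03). The total of miR-664 held 1 probe on replicate 2 of NOCIA and 2 probes on both ANE arrays. Its difference was 0.21 with all probes summed and 0.12 with the authors' table, with overlapping arrays.

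**Figure D2:**
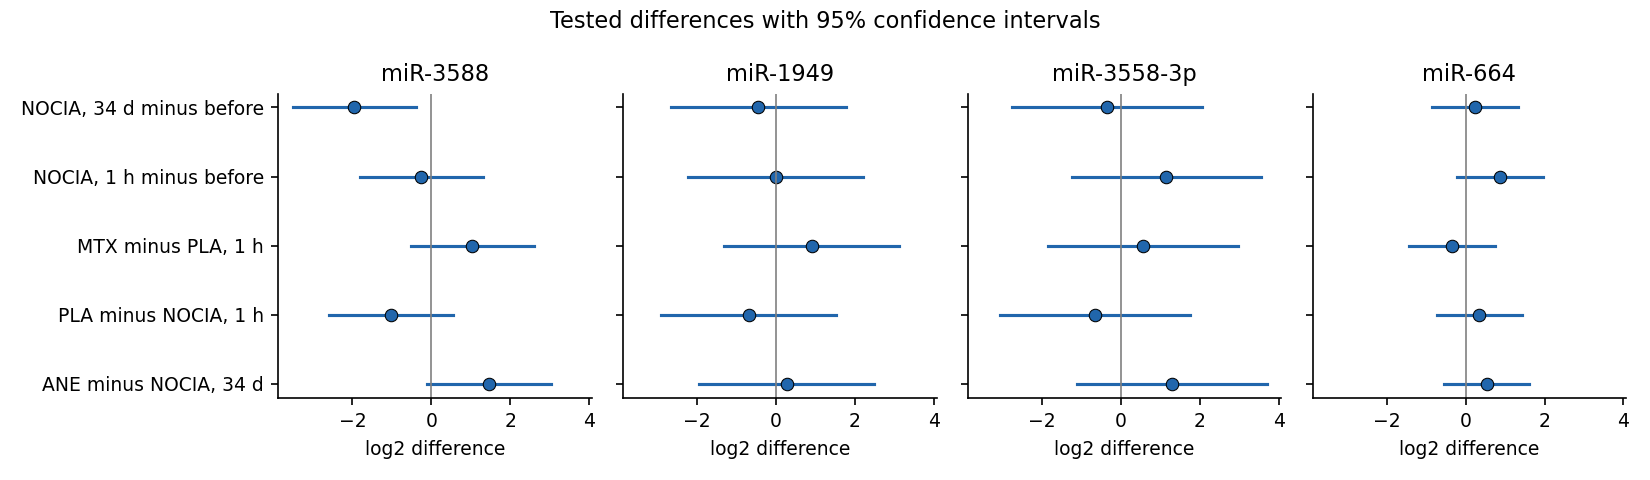
Log2 difference (x axis) of each miRNA in the 5 tested comparisons (y axis), with points for the difference of group means of 2 arrays each and lines for the 95% confidence interval from limma. The interval of miR-3588 in NOCIA animals from before therapy to 34 days, -3.51 to -0.39, was the only one of the 20 that did not include 0, and its adjusted p was 0.591.

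The plot of tested differences shows the intervals to be wide. Those of miR-3558-3p spanned 4.81 on the log2 scale and those of miR-664 2.17. A p above the threshold at this width does not show that the groups were alike. The width rests on the moderated SD over all groups, MS included, and not on the compared groups alone.

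The described comparisons hold the arrays on which the 4 miRNAs were picked, and nothing is read from their counts. In MS at 34 days against CIA before therapy, across slides, miR-3588 was 6.64 ± 1.46 against 9.82 ± 0.25 (SD, n = 2; log2 difference -3.17, SE 0.73). miR-1949 was 6.44 ± 2.51 against 9.53 ± 0.03 (-3.09, SE 1.03), miR-3558-3p 3.85 ± 1.87 against 6.40 ± 1.17 (-2.55, SE 1.12) and miR-664 3.21 ± 0.97 against 4.07 ± 0.50 (-0.86, SE 0.50). The first 3 were lower on both arrays, as 25.2% of the 210 were, and miR-664 overlapped. With all probes summed miR-664 was also lower on both arrays (-1.02). The median over the 210 was 0.16 and over the 4 -2.82.

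These differences rested in large part on replicate 1 of MS. Without it, with the remaining array assumed to vary like the other groups, they were -2.14 for miR-3588, -1.31 for miR-1949, -1.23 for miR-3558-3p and -0.17 for miR-664. Without replicate 2 they were -4.20, -4.86, -3.87 and -1.55 in the same order. The difference of miR-3588 was the largest of the 4 on the higher array.

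The scaling also counted. Replicate 1 of MS at 34 days was multiplied by 0.46 to bring its detected miRNAs to the level of the other arrays, and replicate 2 by 0.69. Without scaling the differences were -1.98 for miR-3588, -1.89 for miR-1949 and -1.51 for miR-3558-3p, and that of miR-664 turned to 0.29, while the median over the 210 rose to 1.32. With the authors' log2 table they were -3.28, -3.07, -1.86 and -0.02. The direction for miR-664 therefore depended on the scaling.

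**Figure D3:**
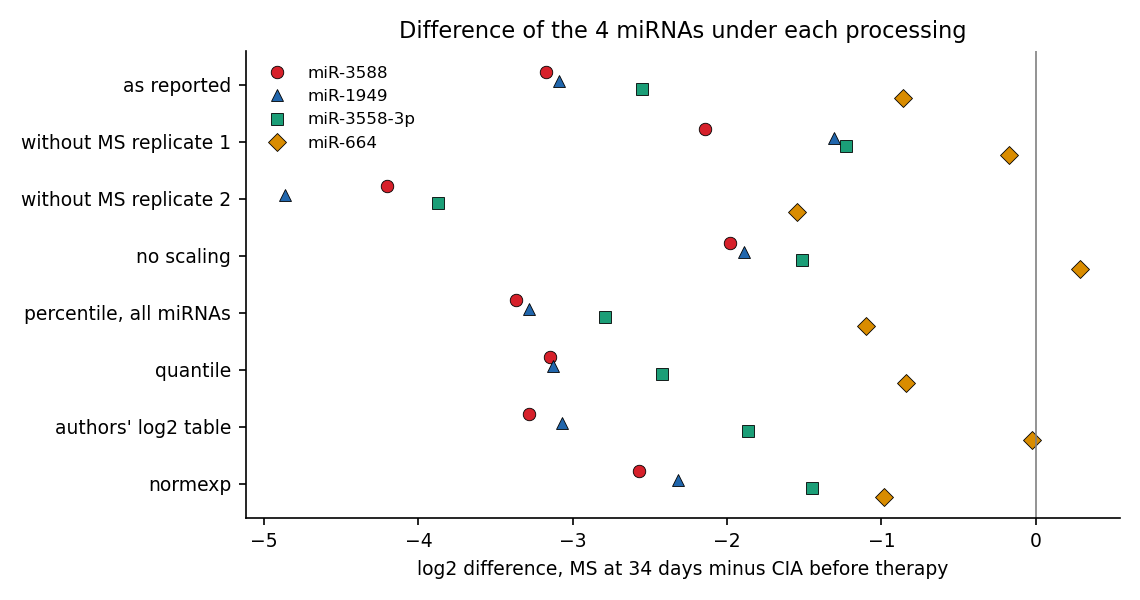
Log2 difference (x axis) between MS at 34 days and CIA before therapy for the 4 miRNAs (symbols) under each processing (y axis), with means of 2 arrays against 2, or of 1 array where an MS replicate is left out. miR-3588, miR-1949 and miR-3558-3p stayed below 0 under every processing shown, from -1.23 to -4.86, and miR-664 lay at 0.29 without scaling.

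Against PLA at 34 days, on 1 slide, the MS arrays were both lower for miR-3588 (-2.31, SE 0.73), miR-1949 (-2.78, SE 1.03) and miR-3558-3p (-3.08, SE 1.12), as for 27.6% of the 210, and overlapped for miR-664 (-0.54, SE 0.50). With all probes summed both were lower for miR-664 as well (-1.02), and with the authors' table its difference was 0. Without replicate 1 of MS the differences were -1.28, -0.999, -1.75 and 0.15, and without scaling that of miR-664 was 0.46. Against MTX at 34 days, also on 1 slide, both MS arrays were lower for miR-3588 (-1.19), miR-3558-3p (-1.83) and miR-664 (-1.32), as for 8.57% of the 210, and miR-1949 (-2.14) overlapped. For miR-664 the difference was -0.95 with all probes summed, and -0.10 with overlapping arrays in the authors' table (3.48 and 3.66 in MS, 3.57 and 3.78 in MTX). Without replicate 1 the main values were -0.16, -0.51, -0.63 and -0.36 for miR-1949.

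At 1 hour replicate 2 of MS was near CIA before therapy for miR-3588 and miR-1949. Against CIA before therapy the differences were -1.34 for miR-3588, -1.87 for miR-1949, -0.31 for miR-3558-3p and -0.999 for miR-664. Both arrays were lower for miR-1949 and miR-664, as for 19.5% of the 210. For miR-664 the difference was -0.92 with all probes summed, and -0.14 with overlapping arrays in the authors' table. Without replicate 1 the main differences of the 4 came to -0.07, -0.18, 1.34 and -0.45, so that miR-3558-3p changed direction. Without scaling miR-3558-3p also turned, to 0.59. Against PLA at 1 hour, on 1 slide, the differences were 0.13, -0.81, -0.35 and -1.72 in the same order. Here miR-664 alone of the 4 was lower on both arrays, as for 21.4% of the 210, and its difference was -1.08 with all probes summed and -0.03 with the authors' table. Without replicate 1 the others were 1.40, 0.89 and 1.30.

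MS was not the only arm in which miR-3588 was low. MTX at 34 days differed from CIA before therapy by -1.98 for miR-3588, the largest fall of the 210 in that comparison, by -0.95 for miR-1949, -0.72 for miR-3558-3p and 0.46 for miR-664. The first 2 were lower on both arrays, as for 16.7% of the 210. Against PLA on the same slide, MTX at 34 days was lower on both arrays for miR-3588 (-1.12), miR-1949 (-0.64) and miR-3558-3p (-1.25), as for 17.6%, and higher on both for miR-664 (0.78), as for 15.7%. With all probes summed miR-664 overlapped in that comparison (-0.08) and differed from CIA before therapy by -0.07.

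PLA at 1 hour differed from CIA before therapy by -1.46 for miR-3588 and -1.07 for miR-1949, lower on both arrays as for 12.4% of the 210, and by 0.72 for miR-664, higher on both as for 29.5%. For miR-664 this was 0.16 with all probes summed, -0.24 with the percentile over all miRNAs, -0.17 with normexp and -0.12 with the authors' table, so its direction depended on the processing. miR-3558-3p differed by 0.04. ANE at 1 hour differed by -0.72 and -1.10 for miR-3588 and miR-1949, lower on both arrays as for 19%, and by -0.25 and -0.40 for miR-3558-3p and miR-664. With all probes summed miR-664 was lower on both arrays as well (-0.47), as it was with the authors' table (-0.13). Without scaling its difference was 0.07. In MTX at 1 hour all 4 overlapped CIA before therapy, with differences from -0.43 to 0.61, where 7.62% of the 210 were lower and 18.6% higher on both arrays.

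At 34 days, ANE and PLA were nearer to CIA before therapy. miR-3588 differed by -0.69 in ANE and -0.86 in PLA, and miR-1949 by -0.54 and -0.31. Both miRNAs were lower on both arrays of either arm, as were 15.2% of the 210 in ANE and 12.4% in PLA. miR-3558-3p and miR-664 overlapped in both. All these comparisons share the 2 CIA arrays before therapy, where miR-3588 and miR-1949 had their highest group means. Between CIA and NOCIA before therapy, on 1 slide, miR-1949 was higher in CIA on both arrays (0.37, SE 1.03), as for 27.6%, and miR-3588 (0.19), miR-3558-3p (0.45) and miR-664 (0.51) overlapped. With all probes summed the differences were 0.08 for miR-3558-3p and 0.15 for miR-664. With the authors' table they were 0.02 and 0.11, and the arrays overlapped in each case.

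Of the other miRNAs on the array, miR-150 was the one whose levels followed miR-1949 most closely, with Pearson's r of 0.985 over 24 arrays and 0.943 over the 20 outside MS. miR-150 is a miRNA abundant in mature lymphocytes. Next to it came its other arm miR-150* (0.981, and 0.938 outside MS) and miR-7a (0.931 and 0.899). In MS at 34 days against CIA before therapy miR-150 differed by -2.43 (SE 0.89) where miR-1949 differed by -3.09, and in MS at 1 hour by -1.65 where miR-1949 differed by -1.87. These correlations are descriptions, since the arrays share their scaling and slides.

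miR-3588 followed miR-500, with r of 0.970 over 24 arrays and 0.967 over the 20 outside MS. miR-363 (0.826 and 0.718) and miR-150* (0.816 and 0.576) came next. In MS at 34 days against CIA before therapy miR-500 differed by -1.98, 7.51 ± 0.59 against 9.49 ± 0.10. With miR-125b-5p, which has the complementary sequence and was detected on 24 arrays at 5.31 to 7.72, r was 0.285 over 24 arrays and -0.11 over 20. The level of miR-125b-5p differed by -0.62 (SE 0.48) in MS at 34 days against CIA before therapy, and by -0.43 at 1 hour.

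**Figure D4:**
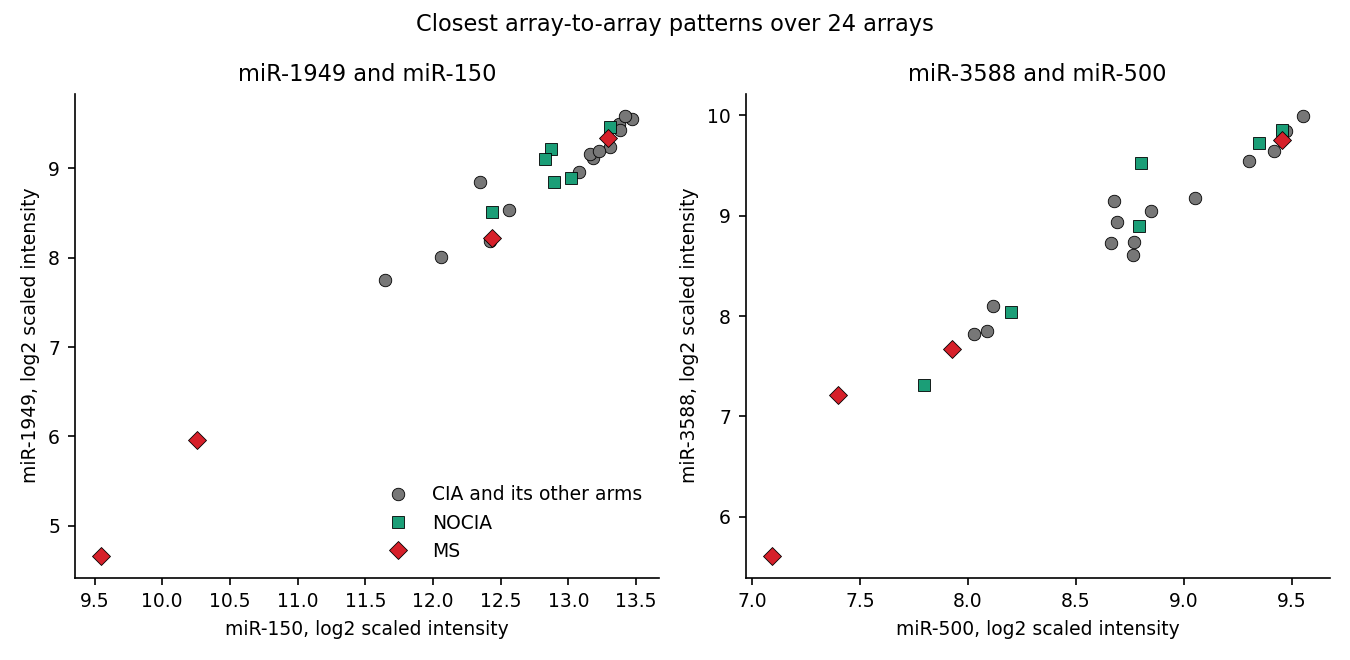
Log2 scaled intensity of miR-1949 against miR-150 (left) and of miR-3588 against miR-500 (right), 1 point per array over 24 arrays, with diamonds for MS, squares for NOCIA and circles for CIA before therapy and the other arms. In the left panel 2 MS arrays lie apart at the bottom (4.66 and 5.96 for miR-1949), and in the right panel the NOCIA arrays at 34 days (8.04 and 7.31) lie near 2 of the 4 MS arrays (7.21 and 7.67).

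Leaving out the arrays at the bottom of the left panel, replicate 1 of both MS groups, gave r of 0.943 for miR-1949 with miR-150 over 22 arrays and 0.972 for miR-3588 with miR-500. For miR-3558-3p the closest were miR-30c-1* (0.859, and 0.903 outside MS), miR-652* (0.837 and 0.704) and miR-500 (0.813 and 0.620). For miR-664 they were miR-211* (0.777 and 0.609), miR-1224 (0.765 and 0.525) and miR-188 (0.748 and 0.542). Among the 4 themselves, r over the 20 arrays outside MS was 0.659 between miR-3588 and miR-1949, 0.539 between miR-1949 and miR-3558-3p and 0.471 between miR-3588 and miR-3558-3p. miR-664 stood apart, with r of -0.087, 0.139 and 0.206 to miR-3588, miR-1949 and miR-3558-3p.

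The lymphocyte list moved with these levels, most closely with miR-1949. The lymphocyte list summed (scaled intensity) to 13915 and 15190 in CIA before therapy, 2168 and 13038 in the MS arm after 1 hour and 2137 and 7566 after 34 days. Over the 20 arrays outside MS it ran from 4744 to 15190. The 2 lowest sums were on the replicates on which miR-1949 was lowest. Over 24 arrays and over the 20 outside MS, r with this list was 0.964 and 0.944 for miR-1949, 0.779 and 0.534 for miR-3588, 0.763 and 0.462 for miR-3558-3p and 0.631 and 0.196 for miR-664. miR-150 belongs to the list, so its closeness to miR-1949 is part of the same measurement. As the brightest of the list it weighs most in the sum. It was at 13.38 and 13.47 in CIA before therapy and 9.55 and 12.43 in MS at 34 days. The others differed less. Between the same groups miR-342-3p went from 11.05 and 11.21 to 9.49 and 10.18. miR-181a went from 10.02 and 10.33 to 9.16 and 9.59, and miR-181b from 7.07 and 7.49 to 6.58 and 6.68.

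The myeloid list summed to 8584 and 9947 in CIA before therapy and to 13682 to 19086 in MS at 34 days, with 8584 to 17453 over the 20 arrays outside MS. The erythroid list summed to 4663 to 8725 in MS at 34 days and 2363 to 37545 outside MS, and the platelet list to 112 to 220 and 55.5 to 165. Over 24 arrays, r with the myeloid list was -0.653 for miR-3588, -0.634 for miR-1949, -0.640 for miR-3558-3p and -0.367 for miR-664, and with the platelet list -0.640, -0.760, -0.644 and -0.513 in the same order. With the erythroid list r ran from 0.156 for miR-3588 to 0.453 for miR-3558-3p. Over the 20 arrays outside MS, again in that order of the 4, r was -0.526, -0.754, -0.493 and -0.296 with the myeloid list. With the erythroid list it was -0.058, 0.289, 0.469 and 0.343, and with the platelet list -0.411, -0.649, -0.418 and -0.185. For miR-3558-3p and miR-664 the erythroid list was at least as close there as the lymphocyte list. miR-122 was at 2.09 to 2.78 in MS at 34 days, where it was not detected, and reached 497 in ANE at 1 hour. In PBMC as a whole, fewer cells of a type and less RNA per cell cannot be told apart, and the part of any list in the levels of the 4 miRNAs was not tested.

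The levels also moved with the brightness of the array. Over 24 arrays, r with log2 of the summed intensity was -0.871 for miR-3588, -0.875 for miR-1949, -0.698 for miR-3558-3p and -0.485 for miR-664, and over the 20 outside MS -0.718, -0.683, -0.279 and 0.053. Before scaling, r over 24 arrays was -0.677, -0.725, -0.453 and 0.141. The scaling divides by a percentile of the same intensities, so part of the first values is built in. The part of array brightness in the differences was not tested.

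Each miRNA had more than 1 probe on the array. miR-3588, miR-1949 and miR-3558-3p had 2 probes of 10 spots each, and the same probe was the brighter one on 24 of 24 arrays, by a median ratio of 2.40, 2.98 and 1.39. Across arrays the 2 probes correlated at r of 0.889, 0.982 and 0.984. For MS at 34 days against CIA before therapy they gave -3.06 and -3.21 for miR-3588, -3.12 and -3.08 for miR-1949 and -2.39 and -2.33 for miR-3558-3p. For NOCIA from before therapy to 34 days the probes of miR-3588 gave -1.54 and -2.10. The 3 probes of miR-664 held together less, with pairwise r of 0.340, 0.204 and 0.948, and gave -0.91, -1.06 and -0.88 in the first comparison.

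The other arms of these hairpins were not seen. miR-3558-5p, miR-664-1* and miR-664-2*, the entries with the same numbers, were detected on 0 of 24 arrays.

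Of the 94 array entries with a number of 1000 or more, 7 were detected on all 24 arrays, 3 of the 4 miRNAs described here among them, and 74 on none. Besides these 3, 11 were detected on at least 3 arrays. In MS at 34 days against CIA before therapy the median of these 11 was -0.88, and 6 of them were lower and 2 higher on both arrays, where the median over the 210 was 0.16 and 25.2% of the 210 were lower and 43.3% higher. In NOCIA from before therapy to 34 days their median was -0.46 and that of the 210 0.12, and limma called 1 of the 11, miR-3593-3p, as higher. From before therapy to 1 hour it called 2, miR-3544 and miR-3593-3p, both higher. In the other 3 tested comparisons it called 0.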

How the data were processed

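Per the file headers, Feature Extraction 10.7.3.1 had read the scans. These deposited values are on a linear intensity scale, with background subtracted and no normalisation between arrays. The authors also deposited a log2 table of the same arrays, and its 24 columns each matched their own array best. The labels name RMA, but which step made that table is not given in the sources used here. Groups came from the labels. NOCIA at 34 days is labelled 1 hour in 1 line of its description, and the title's 34 days was used.

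The software's total per miRNA leaves out some probes on some arrays. For every miRNA this total was scaled to the same 75th percentile over the 132 miRNAs detected on all arrays (factors 0.452 to 1.42), floored at 5.76 (the lowest scaled value called detected on each array, then the median of these), and taken to log2. Detection on at least 3 arrays was required, and the 210 miRNAs so kept were fitted with 12 group means in limma 3.58.1 (R 4.3.3; 12 residual degrees of freedom). P-values were adjusted by Benjamini-Hochberg, and an adjusted p under 0.05 is a call. The fit was also run on simulated data, but the outcome is not given here and nothing rests on it. The number of arrays limits the precision.

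The 4 miRNAs, the marker lists and the comparisons were chosen with earlier results of these data known. The named miRNAs are the 4, entries of the same number or seed, and for each the 3 with the highest r over 24 arrays. Alternatives were other scalings, the authors' table, normexp (offset 50) on the median spot signal, other floors and filters, fits restricted to the compared arrays, a block for the replicate number, and leaving out each array. The sum of all probes was added after the data were seen.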

Additional observations from a re-analysis of the deposited data

Results flagged for a closer look

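At 1 hour, miR-664 was above the arrays before therapy on both arrays of PLA and below them on both arrays of MS, with CIA before therapy as the reference of both, and the 2 differences lay 1.72 apart on the log2 scale. It was likewise above its own arrays before therapy in NOCIA and below those of CIA in MS, and these differences lay 1.87 apart. The difference between the arms was not tested, and it depended on which probes were counted. With all probes of miR-664 summed, PLA stayed above and MS below CIA before therapy, 1.08 apart, while NOCIA at 1 hour overlapped its arrays before therapy. With the authors' table PLA and MS were 0.03 apart, and PLA lay below CIA before therapy with 3 of the alternatives, down to -0.24. The total on replicate 2 of PLA held 2 of the 3 probes, and 1 of these was at a scaled intensity of 19.0 where the other arrays had at most 8.51. In MS replicate 1 was at the floor, PLA, NOCIA and MS at 1 hour lay on another slide than the arrays before therapy, and at most 8 of the 20 spots of miR-664 were well above background.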

How the results depend on the processing

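The count of miRNAs called among the 4 was 0 in all 5 tested comparisons and under all alternatives, with 1 exception: with no filter on detection, miR-3588 was called in NOCIA from before therapy to 34 days (limma, adjusted p = 0.0408). That setting adds entries without a measured level, and it raised the calls over all miRNAs there from 2 to 366. In the same comparison, the calls over all miRNAs were 4 with the percentile over all miRNAs, 1 with the authors' table, 0 with normexp, 0 for miRNAs detected on all arrays, 1 with the sum of all probes and 10 with only the arrays compared. At 1 hour in NOCIA they went from 5 to 3 without scaling or with a floor at 1, to 2 with the percentile over all or quantile normalisation, to 0 with the authors' table, normexp, detection on all arrays or the sum of all probes, to 372 with no filter, and to 8 without replicate 2 before therapy. In MTX against PLA they went from 0 to 1 with the floor doubled or without replicate 1 of MTX, and to 2 without replicate 1 of PLA. In PLA against NOCIA, leaving out replicate 1 of PLA gave 2.

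Of 320 values of the 4 miRNAs under alternatives, 23 changed direction, and in none of these was the main value called. In NOCIA from before therapy to 34 days, no scaling gave 0.13 for miR-1949 and 0.23 for miR-3558-3p, and miR-664 went to -0.31 with quantile normalisation, -0.45 with normexp and -0.18 with the sum of all probes (an alternative chosen after the data were seen). With single arrays left out, miR-3558-3p ran from -1.73 to 1.02 and miR-664 from -0.28 to 0.75. At 1 hour in NOCIA, miR-1949 was 0.076 without scaling, and miR-664 was -0.019 with quantile normalisation and -0.14 with normexp. With single arrays left out, miR-3588 ran from -0.73 to 0.23, miR-1949 from -0.31 to 0.31 and miR-3558-3p from -0.22 to 2.53. miR-664 in MTX against PLA was 0.093 with the authors' table and 0.078 with normexp, and in PLA against NOCIA -0.16 and -0.15. In PLA against NOCIA, miR-1949 ran from -1.40 to 0.0018 with single arrays left out. In ANE against NOCIA it was -0.048 with the percentile over all miRNAs and -0.047 with quantile normalisation, and ran from -0.17 to 0.73 with single arrays left out. The causes were not tested.

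Without scaling, the median over the 210 moved by more than 0.1 in most comparisons, most of all in MS at 34 days against CIA before therapy (0.16 to 1.32). Of 520 described values under alternatives, 84 moved by more than the spread between replicates.

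Replicate numbers name different animals. Over 132 miRNAs, deviations of same-numbered arrays correlated between -0.573 and 0.386 in the 5 comparisons, so the numbers were not taken as pairs. With the replicate number as a block, the calls among the 4 stayed at 0, those over all miRNAs were 2 and 5 in the NOCIA comparisons, and miR-3588 from before therapy to 34 days had an adjusted p of 0.491.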
